A study of Mus musculus with 40 samples.

Results

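The 34 genes described here encode the transporters and enzymes that take up glucose, split it to pyruvate, export lactate and feed the pentose phosphate pathway. They were chosen by name as a list, and all 34 were found among the 27179 genes of the deposited expression table. All 34 had a mean level of at least log2 of 5 in every comparison, so none was lost to the filter on low expression. The list holds 3 glucose transporters, 3 hexokinases, 4 genes of upper glycolysis, 2 PFKFB genes (bifunctional regulators of phosphofructokinase), 9 genes of lower glycolysis, 4 genes of lactate handling, 2 pyruvate dehydrogenase kinases (PDK), 3 genes of the oxidative branch of the pentose phosphate pathway (PPP) and 4 genes of its non-oxidative branch.

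Glycolysis breaks glucose down to pyruvate in the cytosol and yields ATP without oxygen. Macrophages activated through Toll-like receptors are known to raise glucose uptake and lactate release, and the transcription factor HIF1α drives many glycolytic genes. The pentose phosphate pathway branches off after the hexokinase step, makes NADPH and ribose, and returns its carbon to glycolysis. Most steps can be catalysed by several isoforms that come from separate genes, and the isoforms differ in regulation more than in the reaction they catalyse.

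The study asked how the RNA-binding protein CPEB4, which acts on mRNAs in the cytoplasm, shapes the macrophage response to lipopolysaccharide (LPS), a component of bacterial outer membranes. Bone marrow-derived macrophages (BMDMs) were grown in L-cell conditioned medium, a source of M-CSF, from adult male mice of mixed C57BL/6J and 129 background that were wild-type (WT) or full *Cpeb4* knockouts (*Cpeb4*-/-), a deletion present in every cell of the animal. Cells were left untreated (0 hr) or received 10 ng/ml LPS for 1, 3, 6 or 9 hr. The 8 mice, 4 per genotype, each gave a library at all 5 times, which makes 40 libraries and 10 groups of 4. Each of 2 batches held 2 mice of each genotype, whereas none of the 6 cages held both genotypes (0 of 6), so cage and genotype cannot be told apart. Values of 4 libraries are listed below in the order of mice 25, 69, 87 and 88 for WT and of mice 2, 3, 55 and 62 for *Cpeb4*-/-. Levels are rlog values, the authors' regularised log2 of library-size-corrected counts, and a difference of 1 on this scale is a doubling. In bulk RNA, fewer cells of a type and less RNA per cell cannot be told apart.

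The libraries of a group resembled each other closely, with correlations across genes from 0.992 to 0.998 over 60 replicate pairs, and medians over expressed genes from 8.9 to 9.08. *Cpeb4* itself was lower in the knockout at 6 hr, at 8.87, 9.45, 9.66 and 8.74 against 10.42, 10.67, 10.09 and 10.62 in WT (difference -1.27, SE 0.19, limma adjusted p = 0.0011), and the groups overlapped at the other 4 times. Its mean was 7.48 in the knockout against 7.71 in WT at 0 hr, 9.01 against 8.64 at 1 hr, 9.21 against 9.76 at 3 hr and 8.75 against 9.05 at 9 hr. The label was thus borne out by this gene at 6 hr only, and whether the reads counted lie outside the deleted part of the gene was not tested. All 8 macrophage markers were well expressed, with means from 9.66 to 18.24, while 0 of 4 erythroid and 0 of 4 fibroblast markers passed the filter. At 6 hr 4 of the 8 macrophage markers (*Cd68*, *Csf1r*, *Lyz2* and *Fcgr1*) and at 9 hr 3 of them (*Cd68*, *Fcgr1* and *Cd14*) were lower in *Cpeb4*-/-. The log2 of their summed level ran from 19.24 to 19.32 in WT and from 18.92 to 19.14 in *Cpeb4*-/- at 6 hr, and from 19.22 to 19.28 and from 18.94 to 19.14 at 9 hr. Of the other cell types, 1 of 4 T cell, 2 of 4 dendritic cell, 1 of 4 B cell and 4 of 7 neutrophil markers passed the filter, among which *Lck* was lower in the knockout at 6 and 9 hr, *Xcr1* lower at 6 hr and *Zbtb46* higher at 3 hr. The part of these markers in the results below was not tested. The *Cpeb4*-/- library of mouse 2 at 9 hr stood furthest from its group among the 40 (median deviation from the group mean over expressed genes 0.143), and results at 9 hr are therefore also given without it.

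In WT macrophages LPS moved all 34 genes at some time, as it did 93.3% of all genes tested, by the call used here, a limma adjusted p under 0.05 (for LPS in a model of all 40 libraries, for genotype in the 8 libraries of each time). At 1 hr 7 members rose and 1 fell, against 19.4% and 18.3% of the 13103 genes tested. At 3 hr 13 rose and 5 fell, against 33.5% and 36.4% of all genes. At 6 hr 19 rose and 11 fell, against 39.7% and 40.2%, and at 9 hr 23 rose and 9 fell, against 37% and 36.6%. The median change of the members grew from 0.07 at 1 hr and 0.06 at 3 hr to 0.31 at 6 hr and 0.58 at 9 hr, beside medians over all genes of 0.02, -0.02, -0.02 and 0.00. Under quantile normalization the members higher and lower were 7 and 13 at 1 hr, 10 and 15 at 3 hr, 16 and 16 at 6 hr and 17 and 11 at 9 hr, and the share of higher genes among all genes called at 1 hr went from 51.5% to 37.5%, so the balance of the list depended on the scaling. *Eno2*, *Hk2*, *Pfkfb3*, *Pfkp*, *Slc16a3*, *Slc2a1* and *Slc2a6* were higher at all 4 times, 7 genes, whereas *Pfkfb4* was lower at all 4. Under quantile normalization *Pfkp* was not called higher at 1 or 9 hr, nor *Slc16a3* at 3 hr. The call of *Pfkp* at 1 hr was also lost without WT mouse 25, and that of *Eno2* at 6 hr without WT mouse 25 or 88. With libraries centred on their median *Pfkfb4* was not called at 9 hr.

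**Figure D1:**
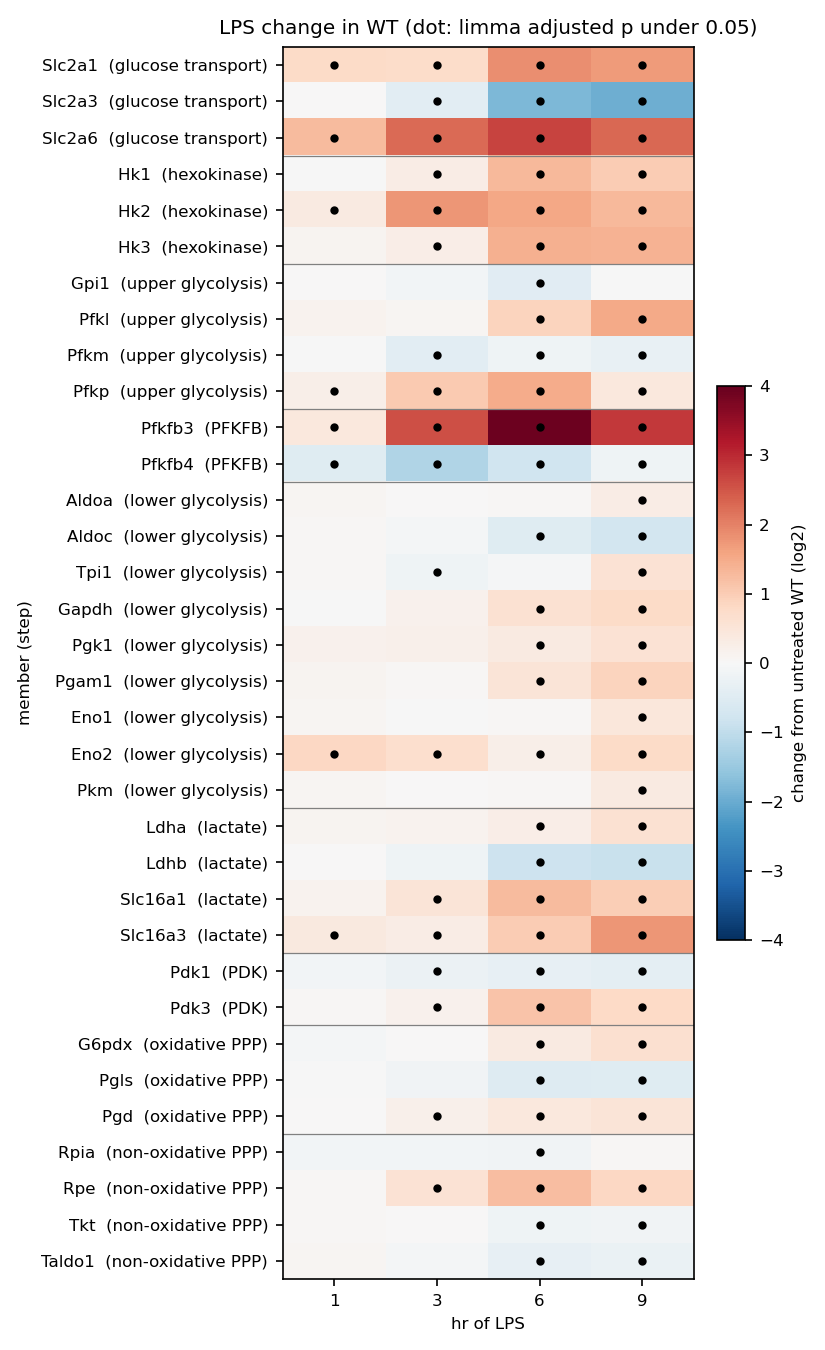
Change of each of the 34 members from untreated WT (colour, log2) at 1, 3, 6 and 9 hr of LPS (columns), ordered by step of the pathway. Dots mark a limma adjusted p under 0.05, and the largest change is that of *Pfkfb3* at 6 hr, 3.93.

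The glucose carriers did not move together. *Slc2a1*, which encodes the widely expressed carrier GLUT1, stood at 10.19, 10.38, 10.07 and 10.20 in untreated WT and at 12.11, 12.14, 12.10 and 11.98 at 6 hr. *Slc2a6*, which encodes the related carrier GLUT6, went from 12.10, 12.22, 12.22 and 12.38 to 14.85, 14.93, 14.92 and 14.99. *Slc2a3*, which encodes the high-affinity carrier GLUT3, went the other way, from 8.10, 7.81, 7.95 and 8.11 to 6.10, 6.34, 6.19 and 6.13. No LPS library overlapped the untreated ones for any of these 3 genes at 6 hr. *Slc2a1* rose by 1.87 (SE 0.11, 3.66-fold, limma adjusted p = 1.7e-17), *Slc2a6* rose by 2.69 (SE 0.05, 6.46-fold, adjusted p = 1.7e-31) and *Slc2a3* fell by 1.80 (SE 0.10, adjusted p = 6.6e-18). The rises of *Slc2a6* (1.28, 2.43-fold) and *Slc2a1* (0.77, 1.71-fold) were already present at 1 hr, when *Slc2a3*, at 8.20, 7.92, 7.89 and 7.98, overlapped its untreated values. By 9 hr *Slc2a3* stood at 5.96, 5.88, 6.22 and 6.14 in WT, 1.95 below its untreated mean.

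The hexokinases, which trap glucose in the cell by phosphorylation, rose in turn. *Hk2*, the inducible isoform, led with 10.44, 10.59, 10.50 and 10.43 untreated and 12.24, 12.32, 12.26 and 12.24 at 3 hr, a rise of 1.77 (SE 0.05, 3.42-fold, limma adjusted p = 2.6e-26). It then came down to 11.97, 12.10, 12.05 and 12.06 at 6 hr and to 11.68, 11.83, 11.74 and 11.90 at 9 hr. *Hk1* and *Hk3* moved later. *Hk1*, the housekeeping isoform, went from 11.23, 11.26, 11.14 and 11.25 to 12.44, 12.56, 12.55 and 12.59 at 6 hr, a rise of 1.31 (SE 0.07, 2.49-fold). *Hk3*, an isoform of myeloid cells, went from 12.93, 13.08, 12.99 and 13.06 to 14.33, 14.60, 14.28 and 14.54, a rise of 1.43 (SE 0.07, 2.69-fold). At 1 hr *Hk1* (11.18, 11.33, 11.10 and 11.17) overlapped its untreated values. The small rise of *Hk3* at 3 hr (0.25) turned to -0.35 when the libraries were quantile normalised.

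At the committing step, phosphofructokinase, the 3 isoforms followed 3 courses. *Pfkp*, the platelet-type isoform, went from 11.53, 11.57, 11.46 and 11.54 through 12.50, 12.62, 12.53 and 12.66 at 3 hr to 12.86, 13.18, 12.93 and 13.09 at 6 hr, a rise of 1.49 (SE 0.07, 2.81-fold), and was back within 0.43 of its start at 9 hr. *Pfkl*, the liver-type isoform, was at 10.88, 10.93, 11.04 and 10.91 untreated and still at 11.07, 11.10, 11.06 and 10.78 at 3 hr. It reached 11.94, 11.84, 11.96 and 11.56 at 6 hr and 12.40, 12.49, 12.42 and 12.44 at 9 hr, a rise of 1.50 (SE 0.09, 2.82-fold, limma adjusted p = 2.6e-17). *Pfkm*, the muscle-type isoform, went from 9.12, 9.14, 9.23 and 9.21 to 8.75, 8.78, 8.74 and 8.74 at 3 hr and stayed below its start at 9 hr (8.85, 8.90, 8.94 and 8.87), with changes of -0.42 and -0.29.  Relative to untreated cells, *Pfkp* was thus the early and *Pfkl* the late isoform. *Gpi1*, which encodes the isomerase before this step, fell by 0.44 at 6 hr and stood at its untreated level at 9 hr, with a change of -0.01.

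The regulators of that step showed the widest change of the list. *Pfkfb3* encodes a bifunctional enzyme that makes fructose-2,6-bisphosphate, the main activator of phosphofructokinase. Its level went from 10.69, 10.61, 10.54 and 10.67 to 13.10, 13.36, 12.96 and 13.35 at 3 hr and 14.62, 14.57, 14.46 and 14.59 at 6 hr, a rise of 3.93 (SE 0.09, 15.3-fold, limma adjusted p = 2.7e-30). At 9 hr it was down to 13.41, 13.53, 13.33 and 13.51. *Pfkfb4*, which encodes a sister enzyme, went the other way, from 10.25, 10.35, 10.21 and 10.24 untreated to 9.09, 9.12, 8.98 and 9.01 at 3 hr. It came back to 9.59, 9.39, 9.45 and 9.36 at 6 hr and to 10.07, 9.98, 10.16 and 10.13 at 9 hr. The low point at 3 hr was a change of -1.21 (SE 0.05, adjusted p = 7.1e-23).

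Lower glycolysis moved late and by less. Of its 9 genes, 1 rose at 1 hr, 1 rose and 1 fell at 3 hr, 4 rose and 1 fell at 6 hr, and 8 rose and 1 fell at 9 hr. The early riser was *Eno2*, the neuronal-type enolase, at 8.98, 9.04, 8.93 and 8.85 untreated and 9.91, 9.71, 9.77 and 9.77 at 1 hr, a rise of 0.84 (SE 0.09, 1.79-fold), whereas *Eno1*, the common enolase, overlapped, at 11.84, 11.99, 12.22 and 12.10 after an untreated 11.82, 11.99, 12.12 and 11.95. At 9 hr the rises were 0.90 for *Pgam1* (phosphoglycerate mutase), 0.78 for *Gapdh*, 0.78 for *Eno2*, 0.58 for *Tpi1* (triosephosphate isomerase), 0.58 for *Pgk1* (phosphoglycerate kinase) and 0.46 for *Eno1*. *Pkm* (pyruvate kinase) and *Aldoa* (aldolase A) rose by 0.35 and 0.30 at 9 hr, changes that became -0.07 and -0.19 under quantile normalization. With that scaling *Tpi1* and *Eno1* were not called at 9 hr either, and *Aldoa*, *Eno1*, *Pkm* and *Tpi1* were called lower at 6 hr. *Aldoc*, the brain-type aldolase, was the 1 gene of the group that fell, from 9.06, 9.13, 9.17 and 9.39 to 8.46, 8.53, 8.37 and 8.49 (change -0.73, SE 0.08), while *Aldoa* went from 14.64, 14.72, 14.82 and 14.75 to 14.95, 15.10, 15.07 and 15.03. *Tpi1* was the 1 member of the whole list that fell early (change -0.17 at 3 hr) and rose late.

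Lactate handling shifted toward *Ldha* and *Slc16a3*. *Ldha*, the lactate dehydrogenase subunit that favours lactate formation, went from 13.53, 13.54, 13.78 and 13.61 to 14.17, 14.30, 14.23 and 14.23 at 9 hr (rise 0.62, SE 0.07, 1.54-fold, but 0.03 and not called under quantile normalization). *Ldhb*, the heart-type subunit, went from 4.96, 5.00, 5.02 and 5.44 to 4.06, 4.45, 4.06 and 4.29 (change -0.89, SE 0.16), at a low level. At 6 hr the rise of *Ldha* was 0.27, and it became -0.61 under quantile normalization. *Slc16a3*, which encodes MCT4, the exporter of lactate from glycolytic cells, went from 10.76, 10.90, 10.92 and 10.83 to 12.46, 12.74, 12.55 and 12.79 at 9 hr, a rise of 1.78 (SE 0.08, 3.44-fold, limma adjusted p = 2.6e-21). *Slc16a1*, which encodes the carrier MCT1, peaked at 6 hr with a rise of 1.28 (2.43-fold), and at 1 hr its values, 9.64, 9.71, 9.52 and 9.28, overlapped the untreated 9.37, 9.47, 9.39 and 9.36.

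The kinases that close the pyruvate dehydrogenase complex to pyruvate parted as well. *Pdk3* went from 8.73, 8.70, 8.85 and 8.90 to 9.79, 9.88, 9.89 and 10.20 at 6 hr, a rise of 1.15 (SE 0.06, 2.22-fold). *Pdk1* went from 10.93, 10.86, 10.95 and 10.93 to 10.61, 10.49, 10.67 and 10.54 at 6 hr and to 10.47, 10.45, 10.58 and 10.60 at 9 hr (change -0.39, SE 0.05).

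In the pentose phosphate pathway the genes of each branch did not move together. In the oxidative branch *G6pdx*, the entry enzyme that makes NADPH, rose by 0.64 at 9 hr and *Pgls*, the lactonase after it, fell by 0.48, while *Pgd*, the next dehydrogenase, rose by 0.51 but stood at -0.09 under quantile normalization. *Rpe*, which interconverts the pentose phosphates, rose by 1.22 at 6 hr (SE 0.05, 2.32-fold) and by 0.82 at 9 hr. *Tkt* and *Taldo1*, which return carbon to glycolysis, changed by -0.17 and -0.34 at 6 hr. *Rpia*, the ribose phosphate isomerase, changed by -0.13 at 6 hr and 0.04 at 9 hr. The scaling decided several of these directions: *Pgd* became -0.42 and -0.48 at 3 and 6 hr, *G6pdx* -0.29 at 6 hr and *Rpia* 0.07 at 6 hr under quantile normalization, and *Rpia* 0.03 when libraries were centred on their median. Centring alone moved the median of all genes to 0.14 at 6 hr and 0.11 at 9 hr.

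**Figure D2:**
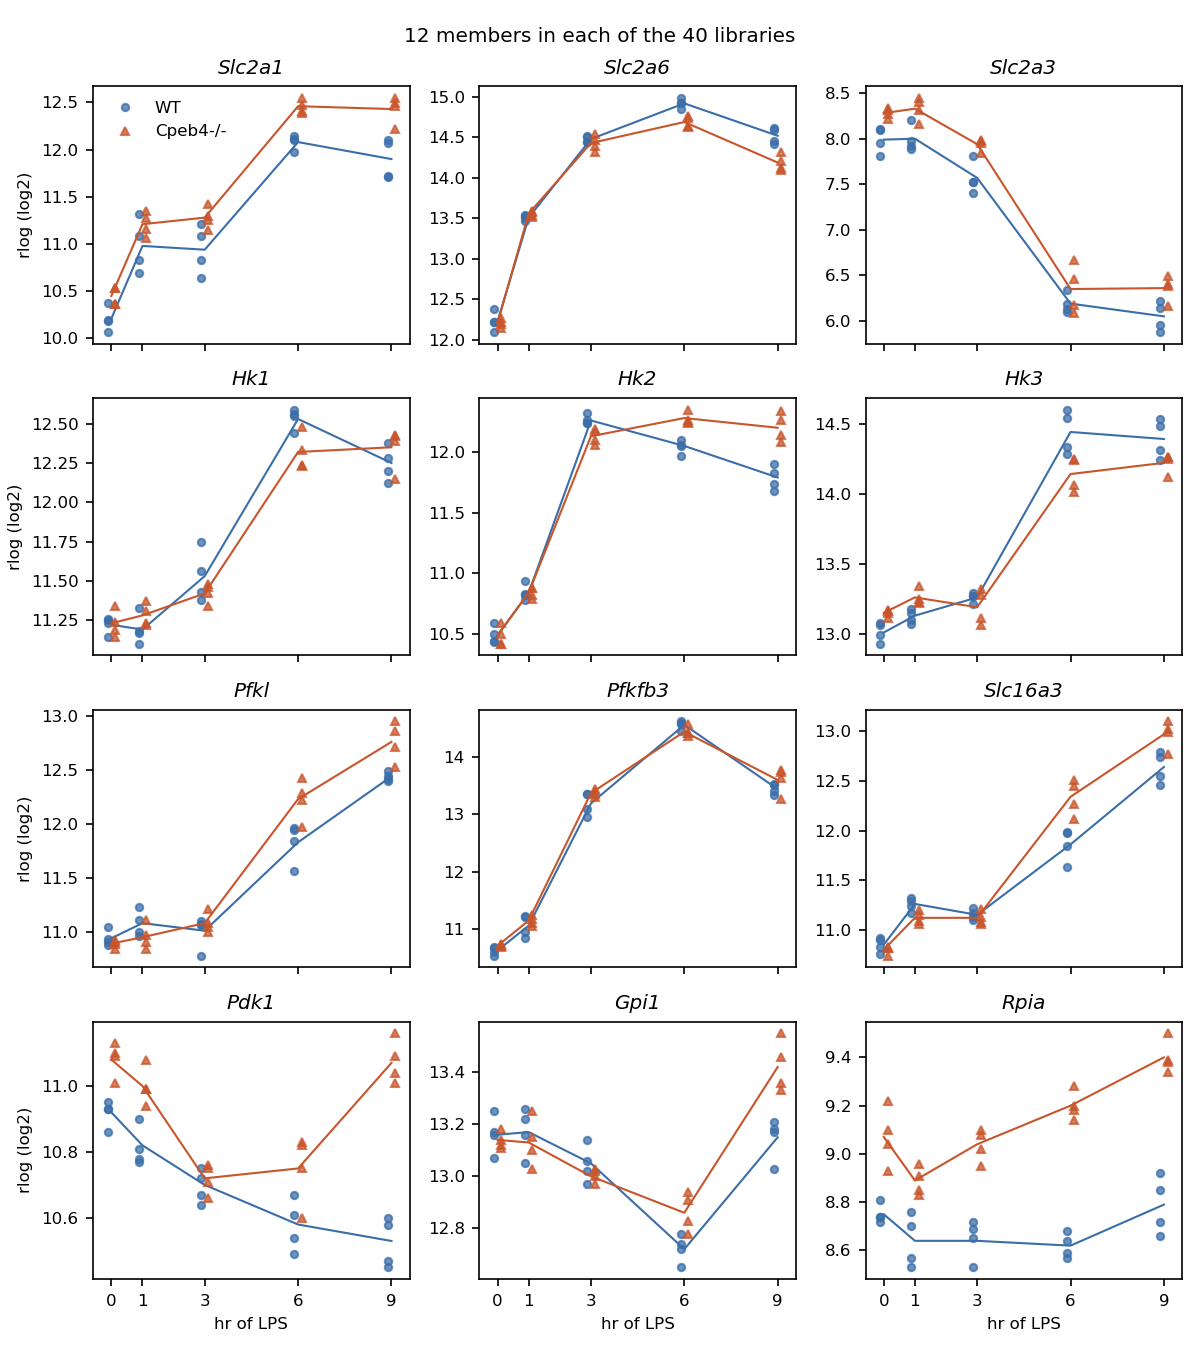
rlog level (log2) of 12 members in each of the 40 libraries against hours of LPS, with WT as circles and *Cpeb4*-/- as triangles. Lines join the means of 4 libraries, and the *Rpia* points of the genotypes do not meet at any time.

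The isoform ratios were compared within each of the 8 mice between 0 and 9 hr, with an exact two-sided sign-flip permutation test over the mice of both genotypes, whose smallest p is 0.0078. Of 12 pairs, 9 reached that p, and their Benjamini-Hochberg adjusted value over the 12 was 0.01. *Slc2a1* gained on *Slc2a3* by 3.77 ± 0.20 (SD, n = 8), the widest shift, and *Pfkfb3* on *Pfkfb4* by 2.99 ± 0.21 after a difference of 4.55 at 6 hr. The ratio *Pfkm*/*Pfkl* changed by -1.92 ± 0.18, and the ratio *Pfkp*/*Pfkl* changed by -1.28 ± 0.30 after it had been 0.87 above its start at 3 hr. *Ldhb*/*Ldha* changed by -1.64 ± 0.23, *Aldoc*/*Aldoa* by -0.96 ± 0.11 and *Slc16a1*/*Slc16a3* by -0.95 ± 0.21, the last being at 0.00 at 6 hr. *Pdk3* gained 1.02 ± 0.20 on *Pdk1*, and *Hk2* gained 0.43 ± 0.24 on *Hk1* after a peak of 1.46 at 3 hr. The other 3 pairs did not pass: *Hk3*/*Hk1* (0.15 ± 0.26, exact p = 0.15, adjusted 0.16), *Slc2a1*/*Slc2a6* (-0.30 ± 0.37, exact p = 0.07, adjusted 0.084) and *Eno2*/*Eno1* (0.05 ± 0.34, exact p = 0.71). In these 3 pairs the mean changes of the 2 genotypes differed. They were -0.60 in WT and 0.00 in *Cpeb4*-/- for *Slc2a1*/*Slc2a6*, and 0.35 and -0.05 for *Hk3*/*Hk1*. For *Eno2*/*Eno1* they were 0.33 and -0.23, so its mean over the 8 mice joins changes of opposite sign. Some pairs that passed also differed in size between WT and *Cpeb4*-/-, with -1.06 and -1.49 for *Pfkp*/*Pfkl* and 0.27 and 0.60 for *Hk2*/*Hk1*. Others hardly did, as *Pfkfb3*/*Pfkfb4* with 3.00 and 2.98. The differences between the genotypes were not tested.

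**Figure D3:**
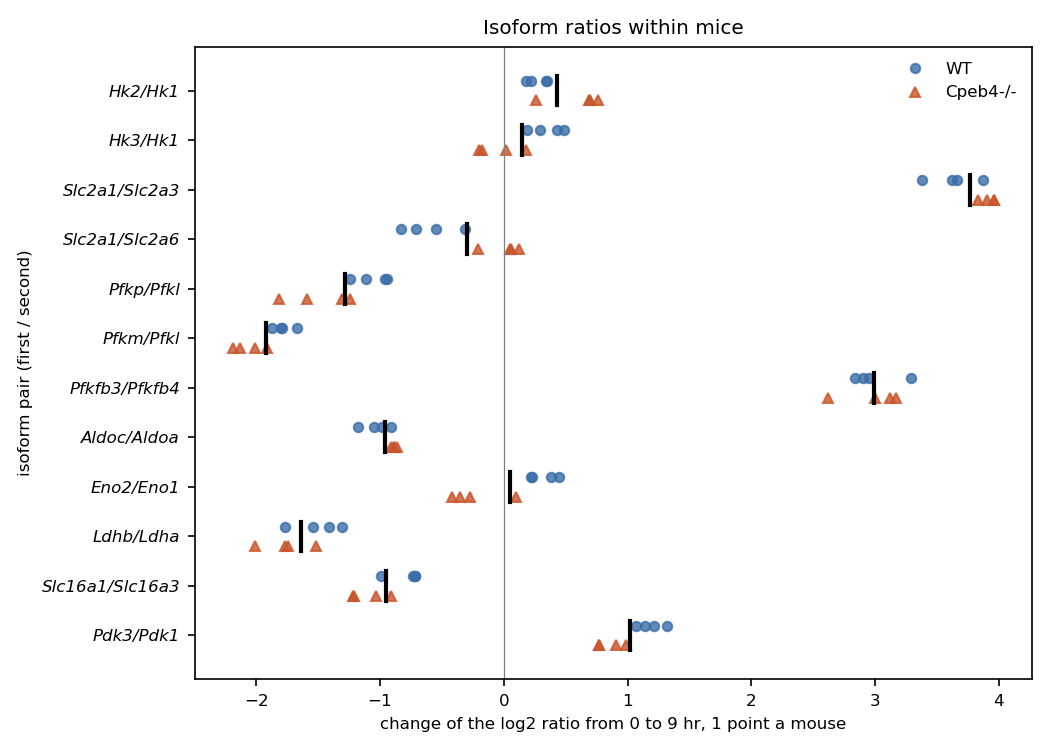
Change of each isoform log2 ratio from 0 to 9 hr within each mouse (1 point a mouse, WT circles and *Cpeb4*-/- triangles), with a bar at the mean of the 8 mice. The *Slc2a1*/*Slc2a3* points run from 3.38 to 3.96, and the *Pfkm*/*Pfkl* points from -2.19 to -1.66.

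Set on a scale per exon length (rlog minus log2 of the exon length in kb), the most abundant members in untreated WT were *Pkm* at 13.76, *Aldoa* at 13.37, *Pgd* at 12.79, *Ldha* at 12.69 and *Taldo1* at 12.67. *Slc2a6* led the glucose carriers before and after LPS, at 11.13 and 13.42 at 9 hr, with *Slc2a1* at 8.50 and 10.19 and *Slc2a3* at 6.01 and 4.06. *Hk3* led the hexokinases, at 11.27 and 12.64. *Pfkp* stood above *Pfkl* before LPS, at 9.42 against 9.04, and below it at 9 hr, at 9.86 against 10.54. Reads of 50 bases cannot be placed for sequence that other genes share. Windows of that length that also occur in transcripts of another gene made up 82.5% of *Gapdh*, 72.2% of *Eno1*, 68.0% of *Pgk1*, 41.5% of *Pgam1*, 34.4% of *Pkm*, 27.0% of *Ldhb* and 25.3% of *Gpi1*, so the levels of these genes are uncertain, *Gapdh* at 8.77 and *Pgam1* at 7.05 among them. Among the 3 carriers and 3 hexokinases the share was at most 2.6%.

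Few members passed the adjusted threshold between the genotypes at 0, 1 and 3 hr. At 0 hr 1 member (*Rpia*) was higher in *Cpeb4*-/- and 0 lower, against 0.741% and 0.565% of all genes tested. At 1 hr 0 were called in either direction by limma, and the shares of all genes were 0.976% and 0.938%. A model of all 40 libraries called 4 members higher and 4 lower at 1 hr, and 16.8% and 15.1% of all genes. At 3 hr *Rpia* and *Slc2a3* were higher and 0 members lower, against 1.81% and 1.87%. At an unadjusted p under 0.05 stood 11 members at 0 hr (9 of them higher), 11 at 1 hr (7 higher) and 8 at 3 hr (4 higher). The knockout libraries lay wholly above WT for 6, 6 and 2 members and wholly below for 2, 2 and 4. Shares of all genes were taken at the adjusted threshold only. The unadjusted and non-overlap counts thus have no background beside them and are no result about the members. The median difference of the members was 0.01, 0.01 and -0.02 at these times, and that of all genes 0.01, 0.02 and 0.01.

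At 6 and 9 hr the knockout differed in part of the list, mostly upward. At 6 hr 11 members were higher and 5 lower, against 6.4% and 9.92% of 13039 genes. At 9 hr 9 were higher and 1 lower, against 4.69% and 3.22% of 13008 genes. The median difference of the members was 0.12 at 6 hr and 0.14 at 9 hr, beside -0.02 and 0.00 for all genes. *Eno1*, *Hk2*, *Pfkl*, *Pgam1*, *Rpia*, *Slc16a3* and *Slc2a1* were higher at both times, 7 genes, and *Slc2a6* was lower at both. The 15 members called at no time were *Aldoa*, *G6pdx*, *Gapdh*, *Ldhb*, *Pdk3*, *Pfkfb3*, *Pfkfb4*, *Pfkp*, *Pgd*, *Pgk1*, *Pgls*, *Pkm*, *Rpe*, *Slc16a1* and *Tkt*. Among all genes called at 6 hr, 39.2% were higher, and this share was 50.7% under quantile normalization, where 16 members were higher and 4 lower. At 9 hr the share was 59.3%, and 50.3% with libraries centred on their median, where 7 members were higher and 1 lower. At 3 hr it was 49.3%, and 41.5% when centred, where 1 member was higher and 2 lower. Within each of the 2 batches the direction was the same for 16 of 16 called and 15 of 18 other members at 6 hr, and for 10 of 10 called and 20 of 24 other members at 9 hr, in the same libraries that gave the calls, so this is no separate check.

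**Figure D4:**
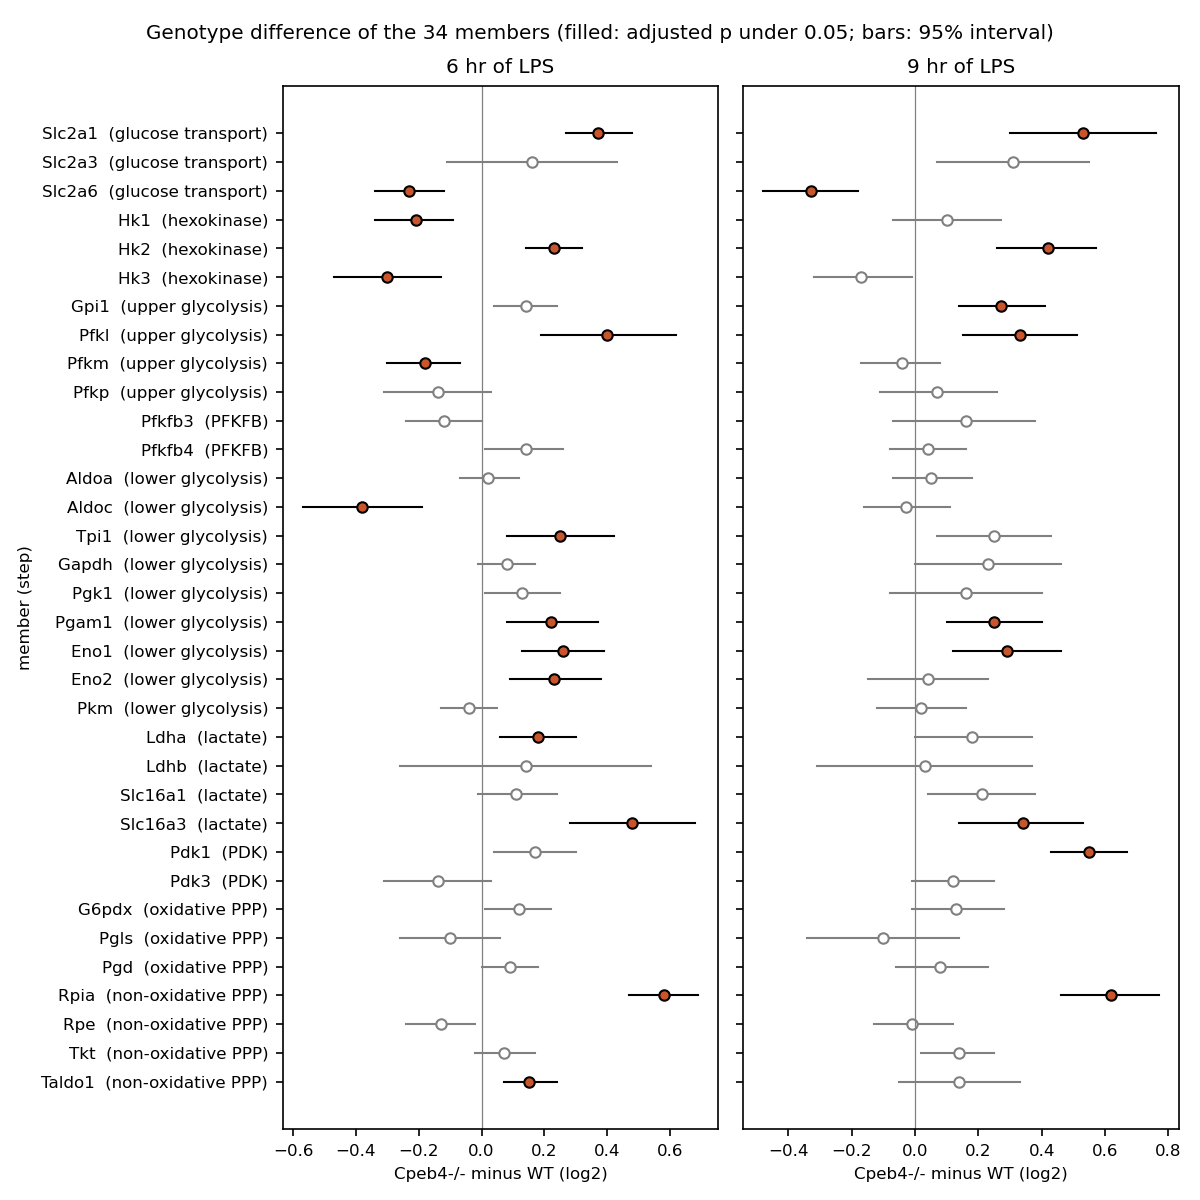
Difference between *Cpeb4*-/- and WT (log2) of the 34 members at 6 hr (left) and 9 hr (right) with 95% intervals, filled where the limma adjusted p is under 0.05. The *Rpia* point is the highest in each panel, at 0.58 and 0.62, and *Slc2a6* lies below 0 in both.

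*Rpia* separated the genotypes at every time. Its values were 8.74, 8.72, 8.81 and 8.74 in WT and 8.93, 9.04, 9.22 and 9.10 in *Cpeb4*-/- before LPS, a difference of 0.32 (SE 0.07, limma adjusted p = 0.044). At 3 hr they were 8.65, 8.69, 8.72 and 8.53 against 8.95, 9.08, 9.10 and 9.02 (difference 0.39, adjusted p = 0.013). At 6 hr they were 8.59, 8.64, 8.68 and 8.57 against 9.28, 9.20, 9.18 and 9.14. At 9 hr they were 8.85, 8.66, 8.92 and 8.72 against 9.50, 9.38, 9.39 and 9.34. The 1 hr values, 8.53, 8.57, 8.70 and 8.76 against 8.85, 8.96, 8.91 and 8.83, were apart too, but the difference of 0.25 was not called. No *Cpeb4*-/- library overlapped a WT library at any of the 5 times. The difference was 0.58 at 6 hr (SE 0.05, 1.50-fold, adjusted p = 6.6e-05) and 0.62 at 9 hr (SE 0.07, 1.53-fold, adjusted p = 0.0016), and both calls held under every alternative tried, whereas the call at 0 hr held under 8 of 17 and the call at 3 hr was lost without *Cpeb4*-/- mouse 3 (highest adjusted p = 0.058). Its neighbours in the non-oxidative branch moved less: *Taldo1* was higher at 6 hr (0.15, adjusted p = 0.023), and *Rpe* and *Tkt* were not called at any time. The 3 genes of the oxidative branch were called at no time.

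The glucose carriers split by genotype as well. *Slc2a1* at 6 hr was 12.39, 12.41, 12.55 and 12.47 in *Cpeb4*-/- against 12.11, 12.14, 12.10 and 11.98 in WT (difference 0.37, SE 0.05, limma adjusted p = 0.00063), and at 9 hr 12.22, 12.49, 12.46 and 12.55 against 11.71, 12.07, 11.72 and 12.10 (0.53, SE 0.10, adjusted p = 0.015). *Slc2a6* at 6 hr was 14.63, 14.74, 14.77 and 14.64 against 14.85, 14.93, 14.92 and 14.99 (-0.23, SE 0.05, adjusted p = 0.0088), and at 9 hr 14.21, 14.12, 14.32 and 14.10 against 14.45, 14.62, 14.42 and 14.59 (-0.33, SE 0.07, adjusted p = 0.019). At both times every knockout library lay above the WT libraries for *Slc2a1* and below them for *Slc2a6*. The mean of *Slc2a1* was already higher in the knockout at 0 hr (10.45 against 10.21) and at 1 hr (11.21 against 10.98), in groups that overlapped and were not called. Its LPS change was not called as different between the genotypes at any time. Without the filter on low expression neither gene was called at 9 hr. The 9 hr call of *Slc2a1* was also lost without WT mouse 25 or 87 (highest adjusted p = 0.065) and that of *Slc2a6* without *Cpeb4*-/- mouse 3 or 62 or WT mouse 69 (highest adjusted p = 0.062). *Slc2a3* at 3 hr was 7.95, 7.97, 7.84 and 7.99 against 7.53, 7.52, 7.40 and 7.81 (0.37, SE 0.09, adjusted p = 0.0478), while *Slc2a1* at that time was 11.15, 11.42, 11.25 and 11.30 against 10.83, 11.21, 10.64 and 11.09 (0.34, adjusted p = 0.11). *Slc2a3* was not called at 6 hr (6.46, 6.67, 6.09 and 6.18 against 6.10, 6.34, 6.19 and 6.13) or at 9 hr (6.16, 6.38, 6.49 and 6.40 against 5.96, 5.88, 6.22 and 6.14, difference 0.31, adjusted p = 0.1), and its 3 hr call held under 5 of 17 alternatives.

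*Hk2* was higher in the knockout late, and *Hk1* and *Hk3* were lower at 6 hr. *Hk2* at 6 hr was 12.25, 12.35, 12.26 and 12.24 in *Cpeb4*-/- against 11.97, 12.10, 12.05 and 12.06 (difference 0.23, SE 0.04, limma adjusted p = 0.0036), and at 9 hr 12.08, 12.26, 12.14 and 12.34 against 11.68, 11.83, 11.74 and 11.90 (0.42, SE 0.07, adjusted p = 0.0076). *Hk3* at 6 hr was 14.01, 14.25, 14.24 and 14.06 against 14.33, 14.60, 14.28 and 14.54 (-0.30, SE 0.08, adjusted p = 0.022). *Hk1* at 6 hr was 12.23, 12.33, 12.48 and 12.24 against 12.44, 12.56, 12.55 and 12.59, groups that overlapped (-0.21, SE 0.06, adjusted p = 0.023). At 9 hr *Hk1* was not called, at 12.15, 12.42, 12.43 and 12.39 against 12.12, 12.28, 12.20 and 12.38. The 2 lower calls at 6 hr were near the threshold. That of *Hk3* was lost without the filter, without the eBayes trend or without *Cpeb4*-/- mouse 2 or 62 or WT mouse 69 or 88 (highest adjusted p = 0.11), with differences from -0.35 to -0.25 when a mouse was left out. That of *Hk1* held under 8 of 17 alternatives, with differences from -0.27 to -0.18.

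Among the phosphofructokinases, the liver-type *Pfkl* was the isoform higher in the knockout. At 6 hr it stood at 12.29, 11.97, 12.22 and 12.43 against 11.94, 11.84, 11.96 and 11.56 (difference 0.40, SE 0.10, limma adjusted p = 0.016), and at 9 hr at 12.95, 12.53, 12.71 and 12.86 against 12.40, 12.49, 12.42 and 12.44 (0.33, SE 0.08, adjusted p = 0.035), a call that held under 9 of 17 alternatives. *Pfkm* at 6 hr was lower, at 8.84, 8.73, 8.79 and 8.89 against 8.99, 8.95, 9.00 and 9.04 (-0.18, adjusted p = 0.031), a call lost without *Cpeb4*-/- mouse 2, 3 or 55 or WT mouse 25, 87 or 88. *Pfkp* was not called, with 12.74, 12.95, 13.02 and 12.79 against 12.86, 13.18, 12.93 and 13.09 at 6 hr. *Pfkfb3* and *Pfkfb4*, despite their wide LPS changes, were not called at 6 hr (differences -0.12 and 0.14) or 9 hr (0.16 and 0.04).

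In lower glycolysis 4 of 9 genes were higher at 6 hr and 1 was lower, and 2 were higher at 9 hr. The 4 were *Eno1* (0.26), *Tpi1* (0.25, limma adjusted p = 0.0499), *Eno2* (0.23) and *Pgam1* (0.22). All 4 calls were lost without the filter and without the eBayes trend. That of *Tpi1* was also lost with batch as a covariate and with libraries centred on their median. That of *Pgam1* was lost with batch as a covariate, and that of *Eno2* in the models of 40 libraries. *Aldoc* was lower, at 8.23, 8.56, 8.34 and 8.15 against 8.57, 8.69, 8.70 and 8.85 (difference -0.38, SE 0.09, adjusted p = 0.013), while *Aldoa* overlapped, at 14.85, 14.76, 14.78 and 14.86 against 14.77, 14.79, 14.85 and 14.75. Before LPS the knockout already lay below WT for *Aldoc* (8.78 to 9.00 against 9.06 to 9.39). It lay above WT for *Eno2* (9.08 to 9.39 against 8.85 to 9.04). Models of all 40 libraries called both genes at 0 hr, and the fit of the 8 libraries did not. At 9 hr *Eno1* stood at 12.92, 12.60, 12.65 and 12.69 against 12.32, 12.53, 12.49 and 12.38 (0.29, adjusted p = 0.044, held under 9 of 17 alternatives), and *Pgam1* was higher by 0.25 (adjusted p = 0.046). The *Pgam1* call at 9 hr was lost under quantile normalization and with libraries centred on their median. *Eno2*, at 9.93, 9.67, 9.79 and 9.69 against 9.86, 9.81, 9.52 and 9.73, was not called at 9 hr. *Gpi1* was higher at 9 hr, at 13.55, 13.33, 13.36 and 13.46 against 13.03, 13.21, 13.18 and 13.17 (0.27, SE 0.06, adjusted p = 0.025).

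The lactate exporter *Slc16a3* had the largest genotype difference at 6 hr after *Rpia*. It stood at 12.45, 12.12, 12.27 and 12.51 in *Cpeb4*-/- against 11.98, 11.84, 11.99 and 11.63 in WT (difference 0.48, SE 0.09, limma adjusted p = 0.005), and at 9 hr at 13.10, 12.77, 12.99 and 13.02 against 12.46, 12.74, 12.55 and 12.79 (0.34, SE 0.09, adjusted p = 0.045), when 1 WT value exceeded the lowest knockout value and the call held under 9 of 17 alternatives. *Slc16a1* was not called at 6 hr (10.87, 10.72, 10.82 and 10.77 against 10.75, 10.57, 10.61 and 10.81) or at 9 hr (10.52, 10.55, 10.61 and 10.73 against 10.35, 10.32, 10.29 and 10.60). *Ldha* was higher at 6 hr, at 14.16, 13.94, 14.00 and 14.15 against 13.91, 13.84, 13.94 and 13.84 (0.18, adjusted p = 0.04), groups that touched at 13.94, and the call held under 6 of 17 alternatives. *Ldhb*, at 4.75, 4.45, 4.65 and 3.81 against 4.23, 4.30, 4.33 and 4.24, was not called.

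By the call used here *Pdk1* passed at 9 hr only, but the genotypes were already apart before LPS. The knockout libraries lay wholly above WT at 0 hr (11.01 to 11.13 against 10.86 to 10.95). They did so too at 1 hr (10.94 to 11.08 against 10.77 to 10.90), and the groups overlapped at 3 and 6 hr. Models of all 40 libraries also called *Pdk1* higher at 1 and 6 hr. Single-time fits called it higher at 6 hr under quantile normalization and without *Cpeb4*-/- mouse 3 or WT mouse 87. At 9 hr it stood at 11.09, 11.01, 11.04 and 11.16 in *Cpeb4*-/- against 10.47, 10.45, 10.58 and 10.60 in WT. The difference was 0.55 (SE 0.06, 1.46-fold, limma adjusted p = 0.00082). Of the 9 members higher in the knockout at 9 hr, *Pdk1* was the 1 that LPS lowered in WT at that time. *Pdk3* was not called, at 9.67, 9.73, 9.76 and 9.69 against 9.48, 9.61, 9.55 and 9.71.

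The LPS change itself differed between the genotypes for 7 gene and time combinations. At 1 hr 0 members passed in either direction, with 0 at an unadjusted p under 0.05, against 0% and 0.00763% of all genes. At 3 hr 0 passed, with 2 at an unadjusted p under 0.05, against 0.0763% and 0.13%. At 6 hr 2 were higher and 1 lower, against 0.901% and 2.04%, and at 9 hr 3 were higher and 1 lower, against 0.992% and 0.771%. With the mouse as a replicate block 5 were higher and 3 lower at 6 hr, where that fit called 2.54% and 5.33% of all genes, and 9 were higher and 2 lower at 9 hr, where it called 2.71% and 2.28%, so the counts were 8 and 11. The block added *Hk2*, *Rpia*, *Tpi1*, *Pfkp* and *Slc2a6* at 6 hr and *Aldoc*, *Eno1*, *Pfkl*, *Rpia*, *Slc16a3*, *Tpi1* and *Hk3* at 9 hr, and kept the members called without it. Among all genes the higher share at 6 hr was 30.6%, and 44.9% under quantile normalization, where 3 members were higher and 1 lower, and at 9 hr 56.3%, and 43.1% when centred, where 3 members were higher and 1 lower.

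The changes that differed were of opposite kinds. *Slc16a3* and *Pfkl* rose further in the knockout by 6 hr, with changes of 1.54 and 1.34 in *Cpeb4*-/- against 1.01 and 0.89 in WT (differences 0.53, SE 0.11, limma adjusted p = 0.0056, and 0.45, SE 0.13, adjusted p = 0.038). *Hk3* rose less far, by 0.99 against 1.43 (-0.44, SE 0.09, adjusted p = 0.0067). At 9 hr *Hk2* held its level in the knockout, with a change of 1.72 against 1.30 in WT (0.42, SE 0.07, adjusted p = 0.00098). *Pdk1* stood at its untreated level in the knockout, with a change of -0.01, and was down in WT, with -0.39 (0.38, SE 0.07, adjusted p = 0.0011). *Gpi1* changed by 0.28 in the knockout and by -0.01 in WT (0.30, adjusted p = 0.026). *Slc2a6* changed by 1.98 against 2.29 (-0.31, SE 0.08, adjusted p = 0.026). The differences of *Hk3* at 6 hr and of *Hk2* and *Pdk1* at 9 hr passed under every alternative. That of *Slc16a3* was lost without *Cpeb4*-/- mouse 62 (adjusted p = 0.0535), and those of *Pfkl*, *Gpi1* and *Slc2a6* held under 9, 11 and 11 of 17.

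The members higher in the knockout at 6 or 9 hr under every alternative were *Slc2a1*, *Hk2*, *Pdk1* and *Rpia*, and their promoters are shown because a core of the hypoxia response element, the site bound by HIF1α, was searched in all members. The letters searched were ACGTG and GCGTG on both strands, where CACGTG holds ACGTG once on each strand and the matches then overlap, and matches are in capitals, read on the strand of the gene (CACGT and CACGC are matches on the opposite strand). The windows run from 250 bases before to 50 bases after the start, from RefSeq on GRCm38.p6, at chr4:119108495-119108794 on the plus strand for *Slc2a1*, chr6:82774405-82774704 on the minus strand for *Hk2*, chr2:71872974-71873273 on the plus strand for *Pdk1* and chr6:70792126-70792425 on the minus strand for *Rpia*. Each window covers the start of its gene, which spans chr4:119108745-119137330, chr6:82725025-82774454, chr2:71873215-71903858 and chr6:70765720-70792175, in that order.
Slc2a1: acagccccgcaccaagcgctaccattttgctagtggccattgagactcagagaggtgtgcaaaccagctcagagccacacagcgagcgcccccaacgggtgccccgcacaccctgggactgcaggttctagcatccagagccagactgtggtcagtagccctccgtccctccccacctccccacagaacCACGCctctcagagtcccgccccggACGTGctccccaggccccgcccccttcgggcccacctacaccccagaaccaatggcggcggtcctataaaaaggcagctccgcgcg
Hk2: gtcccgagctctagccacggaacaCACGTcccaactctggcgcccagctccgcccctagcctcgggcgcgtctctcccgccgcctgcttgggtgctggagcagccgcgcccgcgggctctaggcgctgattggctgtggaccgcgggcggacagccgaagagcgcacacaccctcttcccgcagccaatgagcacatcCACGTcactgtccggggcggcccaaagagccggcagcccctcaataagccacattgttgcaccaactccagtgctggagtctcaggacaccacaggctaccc
Pdk1: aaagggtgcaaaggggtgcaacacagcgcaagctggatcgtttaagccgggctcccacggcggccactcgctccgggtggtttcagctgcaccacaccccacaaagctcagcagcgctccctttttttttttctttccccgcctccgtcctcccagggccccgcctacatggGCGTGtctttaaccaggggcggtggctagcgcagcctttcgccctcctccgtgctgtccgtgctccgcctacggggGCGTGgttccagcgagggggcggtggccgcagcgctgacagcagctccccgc
Rpia: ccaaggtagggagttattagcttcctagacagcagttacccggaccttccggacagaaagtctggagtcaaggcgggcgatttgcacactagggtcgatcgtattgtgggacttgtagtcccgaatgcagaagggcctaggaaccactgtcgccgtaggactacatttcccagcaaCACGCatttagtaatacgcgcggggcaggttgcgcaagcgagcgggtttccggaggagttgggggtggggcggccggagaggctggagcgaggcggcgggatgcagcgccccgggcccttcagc
*Slc2a1* held 1 ACGTG and 1 GCGTG, *Hk2* held 2 ACGTG, *Pdk1* held 2 GCGTG in this window and 0 in another window, and *Rpia* held 1 GCGTG. In all, 29 of 33 members with a promoter in the table (87.9%) held a match, against 66.8% of 10113 genes tested and 46.7% of 27025 genes. Counted per window of 300 bases, the shares were 78.7%, 61.1% and 43.8%, at a median GC content of 60.7%, 60.3% and 52.7%. *Eno2*, *Gpi1*, *Rpe* and *Tpi1* held no match. A match describes the letters in the window and is not a bound site.

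The *Cpeb4*-/- library of mouse 2 at 9 hr was the highest of its group for 19 members and the lowest for 11, so it was extreme for 30 of 34, where the other 3 libraries of the group were extreme for 6 to 17. It was the highest for *Aldoa*, *Tpi1*, *Pgk1*, *Eno1*, *Pkm* and *Ldha* among others, and the lowest for *Slc2a1*, *Slc2a3*, *Hk1*, *Hk2* and *Pfkfb3*. The members it raised had a median exon length of 2.55 kb and those it lowered 3.96 kb, and the part of length in this was not tested. Without mouse 2, 16 members were higher and 2 lower at 9 hr in place of 9 and 1, while 18.4% and 16.8% of all genes were called: *G6pdx*, *Gapdh*, *Hk1*, *Pfkfb3*, *Slc16a1*, *Slc2a3* and *Tpi1* joined the higher and *Pgls* the lower. At 6 hr the removal of mouse 2 left 6 higher and 2 lower, beside 4.23% and 6.1% of all genes. The median SD of the members ran from 0.06 to 0.11 over the 10 groups and was highest in the knockout at 9 hr.

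Other genes of the pathway were read beside the members. Of 25 further isoforms and transporters, 10 had enough expression to be tested, and in WT 9 of the 10 fell and 1 rose at 6 hr, with a median change of -0.70. *Pdk2*, another kinase of the pyruvate dehydrogenase complex, went from 8.00, 7.88, 7.93 and 7.98 to 5.47, 4.97, 5.29 and 5.03 (change -2.75, SE 0.08). *Slc2a8* (GLUT8) and *Slc16a7* (MCT2) changed by -1.65 and -1.04. Between the genotypes, *Slc2a9* and *Slc2a8* were lower at 6 hr (differences -0.37 and -0.34, limma adjusted p = 0.0065 and 0.026). At 9 hr *H6pd*, which makes NADPH in the endoplasmic reticulum, was higher, at 10.47, 10.78, 10.64 and 10.71 against 9.99, 10.01, 10.10 and 10.18 (0.58, SE 0.07, adjusted p = 0.0023), as was *Gapdhs*, a weakly expressed isoform (0.70, adjusted p = 0.027).

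All 11 genes of pyruvate entry into mitochondria were tested. In WT 5 rose and 3 fell at 6 hr and 6 rose and 2 fell at 9 hr, with *Dld*, a shared subunit of the dehydrogenase complexes, up by 0.89 at 6 hr, *Mpc1*, a subunit of the pyruvate carrier, up by 0.57, and *Pcx*, pyruvate carboxylase, at -0.61. Between the genotypes limma called 0 of the 11 at each of the 5 times, with 0, 3, 3, 2 and 2 at an unadjusted p under 0.05. The share of all genes at that unadjusted p was not taken.

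Of 12 regulators and side branches, 11 were tested, and 4 rose and 7 fell in WT at 6 hr. *Hif1a* went from 11.58, 11.48, 11.32 and 11.46 to 13.19, 13.10, 13.02 and 13.25 at 6 hr, a rise of 1.68 (SE 0.11). In *Cpeb4*-/- it stood at 13.44, 13.43, 13.63 and 13.46 at 6 hr, above every WT library (difference 0.35, SE 0.06, limma adjusted p = 0.0022). At 9 hr it stood at 13.11, 13.79, 13.61 and 13.80 against 12.96, 13.12, 13.07 and 13.29, a difference of 0.47 (SE 0.14, adjusted p = 0.063) that was not called, with the library of mouse 2 within the WT range. *Shpk*, which encodes the carbohydrate kinase CARKL of the pentose phosphate pathway, changed by -1.51 at 3 hr in WT, from 6.43, 6.55, 6.42 and 6.49 to 5.05, 5.05, 5.10 and 4.66. *Myc* rose by 1.39 at 1 hr and was at -1.23 at 9 hr, and *Bpgm* changed by -1.04 at 6 hr. In the knockout *Myc* was higher at 3 hr (0.34, adjusted p = 0.015), *Pgm1* at 6 hr (0.25, adjusted p = 0.021) and *Pgm2* at 9 hr (0.31, adjusted p = 0.033), which encode phosphoglucomutases.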

How the data were processed

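RNA from the 40 macrophage libraries was poly(A)-selected and sequenced by the authors, who aligned reads with STAR (2.3.0e) to mm10, counted them per gene with featureCounts and deposited regularised log2 values (rlog, DESeq2). The deposited log2 values hold no counts, so the depth per library and the precision it gives are unknown here; rlog also shrinks differences of weakly expressed genes. Of the 27179 genes, 6395 were at 0 in every library. Value columns not used numbered 0.

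Genes whose rlog averaged log2 of 5 or more over the libraries compared were fitted with limma (3.58.1, R 4.3.3, trended eBayes, Benjamini-Hochberg over all genes tested, threshold 0.05). Genotypes were compared within the 8 libraries of a time point, and LPS changes and their difference between genotypes in 1 model of 40 libraries, without a block. Same-numbered libraries come from the same mouse: over 80 pairs of times, deviations from group means correlated with a median of 0.29 (68 pairs over 0.1, lowest -0.19), against -0.09 for other mice, and fits with the mouse as a replicate block were run as alternatives. Isoform ratios were tested with an exact permutation test (numpy 2.4.6). The fits were tested on simulated data. Alternatives changed the filter, the eBayes settings, the scaling, the batch term, the libraries fitted and the block, and left out each mouse in turn. Whether replicate mice differ by more than technical spread is read from 4 mice per group.

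Members were described with values in every library, or by their range, where they were called and among the 6 largest differences of a comparison, or where isoforms of a pair parted. In each other list the called genes with the 3 largest differences could be named. The members and lists were chosen with earlier results of these data known. Promoters (250 bases before to 50 after the start) came from RefSeq on GRCm38.p6 and matched 33 of 34 members, without *Slc2a3*. Exon lengths and windows of 50 bases shared between genes came from the GENCODE vM21 annotation and transcripts.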

Additional observations from a re-analysis of the deposited data

Results flagged for a closer look

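Of 143 groups of 4 values tested, 5 held a value further from the rest than Dixon's 95% critical value for 4 samples allows, and chance gives about 1 in 20. *Hk1* was at 12.15 in *Cpeb4*-/- mouse 2 at 9 hr, below 12.39 to 12.43 in the other 3 libraries. *Hk2* was at 12.35 in *Cpeb4*-/- mouse 3 at 6 hr, above 12.24 to 12.26. *Ldhb* was at 5.44 in WT mouse 88 before LPS, above 4.96 to 5.02. *Pfkl* was at 10.78 in WT mouse 88 at 3 hr, below 11.06 to 11.10. *Slc16a3* was at 10.74 in *Cpeb4*-/- mouse 55 before LPS, below 10.82 to 10.83.

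The LPS change differed between the genotypes, *Cpeb4*-/- minus WT, by the limma interaction term for 7 member and time pairs. At 6 hr the differences were 0.53 for *Slc16a3*, 0.45 for *Pfkl* and -0.44 for *Hk3*. At 9 hr they were 0.42 for *Hk2*, 0.38 for *Pdk1*, 0.30 for *Gpi1* and -0.31 for *Slc2a6*.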

How the results depend on the processing

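Of 77 called differences of named members, 51 were called under every alternative, and of 1355 alternative values 1235 kept their direction and side of the threshold, 118 lost the call and 2 changed direction (*Ldha* at 6 hr, -0.61, and *Aldoa* at 9 hr, -0.19). Over every called difference of the 34 members, named by the rule or not, 10 values changed direction, all of LPS changes in WT: 9 under quantile normalization, of which 6 passed the threshold in the other direction, and 1 (*Rpia* at 6 hr) with libraries centred on their median. Counts of members differing between the genotypes moved as follows. At 0 hr the count of 1 became 0 without the filter, without the trend and under quantile normalization, 2 with the batch term, and 3 with 40 libraries in 1 model, without or with the mouse as a replicate block. At 1 hr the count of 0 became 8 and 10 in those models. The model without the block called 16.8% of all genes higher and 15.1% lower at 1 hr. At 3 hr the count of 2 became 1 without the trend, under quantile normalization and with the batch term, and 5 in both models of 40 libraries. The 16 at 6 hr became 6 without the filter and 7 without the trend, and the 10 at 9 hr became 3 and 5. For the LPS change in WT at 1 hr, 8 became 20 under quantile normalization and 15 with 8 libraries and the block. Quantile normalization called 5441 of all genes there, in place of 4944. For the difference of LPS changes, the replicate block, justified by the shared mouse, gave 8 in place of 3 at 6 hr and 11 in place of 4 at 9 hr, and 16 libraries gave 2 at 9 hr. The cause of these shifts was not tested. Where no number of all genes called is given, they cannot be set apart from shifts over all genes.

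Leaving out each mouse in turn gave 0 to 1, 0 to 4, 0 to 5, 8 to 15 and 4 to 18 members for the genotype at 0, 1, 3, 6 and 9 hr, 7 to 9, 17 to 20, 28 to 30 and 31 to 32 for LPS in WT at 1, 3, 6 and 9 hr, and 0 to 0, 0 to 0, 1 to 3 and 2 to 4 for the difference of LPS changes. The lowest count at 6 hr (8) came without *Cpeb4*-/- mouse 2, with 9 without *Cpeb4*-/- mouse 62 or WT mouse 69 and 10 without WT mouse 88. At 9 hr the count was 18 without *Cpeb4*-/- mouse 2, 4 without *Cpeb4*-/- mouse 62 or WT mouse 25 or 87, 5 without WT mouse 69 and 6 without *Cpeb4*-/- mouse 55. Without *Cpeb4*-/- mouse 2 the shares of all genes higher and lower were 4.23% and 6.1% at 6 hr. At 9 hr they were 18.4% and 16.8%. Shares without the other mice were not taken. At 1 hr it was 4 without WT mouse 69, and at 3 hr 0 without *Cpeb4*-/- mouse 3 and 5 without WT mouse 88. For the difference of LPS changes it was 1 at 6 hr without *Cpeb4*-/- mouse 62 and 2 at 9 hr without that mouse or WT mouse 25. The *Eno2*/*Eno1* change of 0.05 ran from -0.01 without WT mouse 88 and 0.00 without WT mouse 25 to 0.11 without *Cpeb4*-/- mouse 2. The table holds no counts, so depth sets limits that cannot be given here.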
